A study of Solanum lycopersicum with 36 samples.

Results

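The combination of drought and heat was compared with control in tomato leaf over 419 miRNA sequences of the 765 that the small RNA table lists. The series has 36 libraries, of which 12 are small RNA and 6 enter this comparison directly. Each sequence was counted once and was kept when it had at least 10 normalized reads in at least 3 of the 12 small RNA libraries. All plants were Solanum lycopersicum of the cultivar ‘Jinlingmeiyu’, which the study describes as tolerating neither stress. They were 24 days old when the groups were split. Control plants were irrigated and kept at 26 °C by day, and combination plants went without water for 3 days and were then moved to 38 °C. Heat plants were irrigated at 38 °C and drought plants went without water at 26 °C. The temperature treatments lasted 48 h, and the study sequenced the first fully expanded leaf as sampled at 36 h. Each treatment had 3 biological replicates. Whether a replicate was 1 plant or a pool is not given in the sources used here, so a p-value measures the spread between these libraries.

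A plant miRNA is excised by a DICER-LIKE enzyme from the stem of a hairpin precursor as a short duplex. The guide strand is loaded into an ARGONAUTE (AGO) protein and directs the cutting of transcripts with a matching site. The partner, the passenger strand, is usually discarded and degraded. Arms were set here by the strand that is known to be loaded in each family, and sequences of families with no such arm, with all candidates, were left without one. Candidates carry the prefix PC and are sequences that the study predicted from hairpins in the genome without a match in miRBase. A code at the end of a name, such as stu for potato, is the species whose entry the sequence matched.

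Values are normalized reads, which are reads multiplied by 1 factor per library. The reads behind them, recovered from the steps between low values, came to 1123628 to 1326291 per control library and to 945216, 1698502 and 1106405 in the combination libraries. The shallowest, combination replicate 1, listed 372 sequences and the deepest, replicate 2, listed 634, while control libraries listed 449 to 540. Sequences that did not pass the filter held 0.0743% of the reads of these 6 libraries. Just inside it, 31 sequences reached the level in exactly 3 libraries, with a median of 6.19 normalized reads for their mean over the 12 libraries, and 0 of them were called. Just outside, 56 reached it in 2 libraries, with a median of 4.66. Small RNA libraries hold no transcripts of leaf marker genes, so the tissue label was not checked by markers. Whole leaves were used, so fewer cells with a miRNA and fewer copies per cell cannot be told apart.

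The sequences that the results turn on are printed as the table gives them, 5′ to 3′ with T for U, and capitals mark the seed (bases 2 to 8). The first set holds the passengers of miR482, all of which fell. The last 2 of them share a seed, and the others differ from each other.
sly-miR482d-5p: gGAGTGGGtgggatggaa
sly-miR482a-p5: gGGATCGGtgagttggaaagc
sly-miR482d-5p_stu: cGTGAGCGgtggggaaagata
sly-miR482e-5p_stu: aGTGGGTGgtgtggtaagatt
sly-miR482e-5p: tGTGGGTGgggtggaaagatt
The second set holds passengers of other families with large falls or, for the miR390 strands, with a different response to heat. The shorter miR390 passenger is the longer one without its last base, so although the study lists them on different precursors their reads may be shared.
sly-miR398a-5p_stu: gGGTTGATttgagaacatatg
sly-miR159-p5: aGCTGCTGacctatggattcc
sly-miR172a-5p_stu: gTGGCATAatcaagattcacg
sly-miR162a-5p_stu: gGAGGCAGcggttcatcgatc
sly-miR6024-5p_stu: aGAAACAAcacttgctaaagg
sly-miR390a-3p: cGCTATCCatcctgagtttt
sly-miR390b-3p: cGCTATCCatcctgagttt
The next set holds both strands of miR168 and of miR403, whose guides moved in opposite directions.
sly-miR168a-5p: tCGCTTGGtgcaggtcgggacc
sly-miR168a-3p: cCTGCCTTgcatcaactgaat
sly-miR168b-3p: cCCGCCTTgcatcaactgaat
sly-miR403-3p: cTAGATTCacgcacaagctcg
sly-miR403-5p: cGTTTGTGcgtgaatctaac
Another set holds guides that share a seed and differ in length at the 3′ end, and some of which were called.
sly-miR162: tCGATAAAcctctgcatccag
sly-miR162a_ptc: tCGATAAAcctctgcatccagt
sly-miR162a_lus: tCGATAAAcctctgcatccagaa
sly-miR408b-3p_stu: tGCACTGCctcttccctggct
sly-miR408-3p_ath: tGCACTGCctcttccctggctt
sly-miR408-3p_mtr: tGCACTGCctcttccctggctttt
The last set holds the miR169 guide that fell and candidates of which both strands rose.
sly-miR169a-5p_ath: cAGCCAAGgatgacttgccgactt
PC-132-5p: aGACAATCcagccgaggaactt
PC-132-3p: tCCTCGGCtgaattgtcttgct
PC-115-5p: aCATGAGAtgctattgatgga
PC-115-3p: aTCAATGGcgtctcgtgtaact

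Most of the sequences that fell at combination were passenger strands, and most guides did not pass the test. Of the 419 sequences, 53 were called for combination vs control by limma on log2(normalized reads + 1) at an adjusted p under 0.05, which is 12.6% of those tested. The log2FC is the difference of the group means on that scale, and it understates the change of sequences with few reads. The 39 lower ones (9.31%) were 31 passengers, 5 guides and 3 sequences without an arm. The 14 higher ones (3.34%) were 11 candidates, 2 guides and sly-miR9470-3p. The median log2FC was -0.04 over all sequences tested, 0.02 over 109 guides and -1.20 over 78 passengers, of which 66 were below 0. Of the 105 passengers listed, 27 did not pass the filter. Of the higher ones 7 (6 candidates and sly-miR162a_lus) reached 10 normalized reads in heat and combination libraries only, so they passed the filter only through groups in which they were high. In the same way sly-miR169a-3p_stu and sly-miR167c-3p_stu passed only through control and drought libraries. Control and combination libraries did not overlap for any of the 53, while 125 of the 419 (29.8%) had no overlap. At an unadjusted p under 0.05 there were 99. Of the 39 lower sequences, 24 were called in each of the 6 fits that left out 1 library, and of the 14 higher ones only sly-miR403-3p and PC-85-3p were. The number higher was 3 without combination replicate 3, 4 without combination replicate 2, 4 without control replicate 1 and 8 without control replicate 3, while the number lower stayed between 28 and 39.

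**Figure D1:**
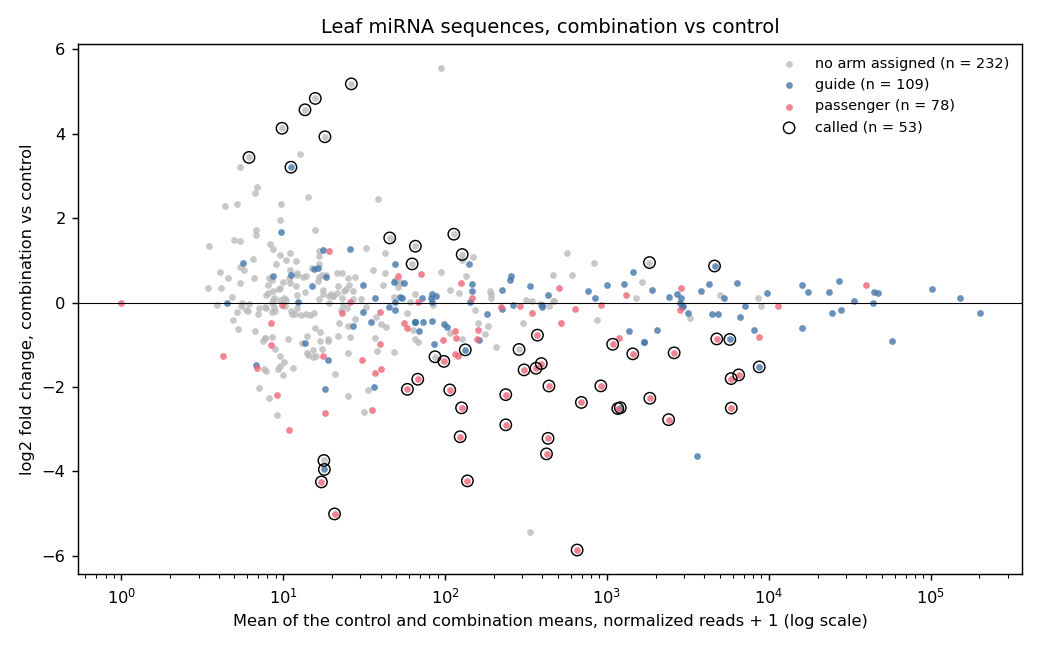
Each point is 1 of the 419 sequences, with the mean of the control and combination means on the x axis (normalized reads + 1, log scale) and the log2 fold change on the y axis, coloured by arm, and black rings mark the 53 called. Ringed passengers lie below 0 from low to high abundance, and most ringed sequences above 0 have no arm and few reads.

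The miRNAs that act on the small RNA pathway itself held calls in both directions. This list has miR162, miR168 and miR403, whose guides direct the cutting of DCL1, AGO1 and AGO2 transcripts. Of its 14 tested sequences 2 rose and 6 fell, with a median log2FC of -0.76 against -0.04 over all. That is 57.1% called, against 12.6% of all sequences. Among 8 guides 2 rose and 2 fell, and among 6 passengers 4 fell (66.7%, against 39.7% of all passengers tested). Of the 2 guides that rose, sly-miR162a_lus passed the filter only through heat and combination libraries.

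The guide sly-miR168a-5p (chromosome 8, 558776 to 558934, a position that the study lists on SL3.0, like those that follow) had 9174, 6533 and 6653 normalized reads in the control libraries and 4460.2, 3487 and 4154 at combination. Every combination library was below every control library, and the mean was 54.1% of control (log2FC -0.88, SE 0.18, adjusted p = 0.0065). Its passenger sly-miR168a-3p went from 3197, 3421 and 2509 to 661, 779 and 475 (log2FC -2.27, SE 0.22, adjusted p = 1.4e-05). The fall of the passenger was larger than that of the guide (log2 change of the ratio -1.39, SE 0.26, adjusted p = 0.0011). The passenger sly-miR168b-3p, from another listed precursor (chromosome 12, 66208888 to 66209055), went from 10054, 11034 and 8637 to 4041, 3266 and 2056 (log2FC -1.71, SE 0.23, adjusted p = 0.00025). Control libraries lay above all combination libraries for both passengers. The guide variant sly-miR168a-5p_ath, listed on a different precursor that overlaps this position, had 97.5, 76.6 and 75.7 against 53.1, 55.7 and 72.1 and was not called (log2FC -0.46, adjusted p = 0.37).

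The strands of miR403 moved apart. The guide sly-miR403-3p (chromosome 1, 78229495 to 78229636) had 2631, 4288 and 3041 normalized reads at control and 6391, 5813 and 5571 at combination, so the lowest combination library was above the highest control library. Its passenger sly-miR403-5p had 1501, 1478 and 1340.0 at control and 627, 841 and 719.8 at combination (log2FC -0.99, SE 0.28, adjusted p = 0.034), a call that was lost whenever any 1 of the 6 libraries was left out. The ratio of the strands did not depend on a single library and was called in every such fit (log2 change of the ratio -1.85, SE 0.36, adjusted p = 0.0013). Passengers made up 30.3% of the duplex by means at control and 11.0% at combination.

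Sequences of miR162 with the same seed and different 3′ ends had calls in both directions, and the differences between them were not tested. The 21-nt guide sly-miR162 held nearly all reads of the family and had 29374, 33007 and 26216 at control and 26228, 29537 and 23094 at combination (log2FC -0.17, adjusted p = 0.62). The 22-nt sly-miR162a_ptc had 146, 216 and 182 and 61.3, 102 and 87.4, which is 46.1% of control (log2FC -1.12, SE 0.30, adjusted p = 0.025). The 23-nt sly-miR162a_lus had 0, 6.38 and 0 at control and 11.4, 28.5 and 14.8 at combination (log2FC 3.20, SE 0.86, adjusted p = 0.025). This form passed the filter only through heat and combination libraries, in which it was high. The 22-nt form was lower in every combination library and the 23-nt form higher, but at levels that are small beside the 21-nt form. The first call was lost without control replicate 2, control replicate 3, combination replicate 1 or combination replicate 3, and the second without control replicate 1, control replicate 3, combination replicate 2 or combination replicate 3. The passenger sly-miR162a-5p_stu fell from 1690.3, 2555 and 1716 to 419.9, 340.4 and 278 (log2FC -2.51, SE 0.22, adjusted p = 1.1e-05).

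Among the miRNAs that act on resistance genes most passengers fell, and no guide passed the test. Of 25 tested sequences 8 fell and none rose, with a median log2FC of -0.26 (32.0% called). All 8 were among the 11 passengers (72.7%, against 39.7% of all passengers), whose median was -1.97, and the 12 guides had a median of -0.25. The guides of miR482 are known to start the making of secondary small RNAs from transcripts of NBS-LRR receptors.

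All 5 passengers of miR482 fell, and all 6 guides were tested without a call. The passenger sly-miR482e-5p (chromosome 4, 56034595 to 56034782), the most abundant of them, had 8641, 10282 and 8382 at control and 2487, 2793 and 2530.5 at combination (log2FC -1.80, SE 0.17, adjusted p = 1.4e-05). Its guide sly-miR482e-3p, the most abundant miRNA of these leaves, had 245613, 184620.0 and 221579 and 158604, 226862 and 165462, with libraries that overlapped (log2FC -0.25, adjusted p = 0.51). The passenger sly-miR482a-p5 fell from 1083, 456 and 812 to 46.8, 68.3 and 69.5 (log2FC -3.58, SE 0.75, adjusted p = 0.0076). On chromosome 6, sly-miR482d-5p_stu (37496890 to 37497014) and sly-miR482d-5p (37496568 to 37496713) lie beside each other on the same strand. The first had 777, 1393 and 1312 at control and 144, 314 and 226 at combination, or 19.7% of the control mean. The other had 242, 331 and 206 and 8.85, 11.4 and 20.0, or 5.17%. A further passenger on that chromosome, sly-miR482e-5p_stu, had 160.2, 232 and 249 and 27.8, 45.6 and 38.2, or 17.4%. None of the 5 lost its call when a library was left out.

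The passengers of miR6024, miR5300 and miR6022 fell as well. The passenger sly-miR6024-5p_stu was even among control libraries at 1474, 1453 and 1449 and had 349, 438 and 333 at combination (log2FC -1.97, SE 0.22, adjusted p = 4.4e-05). Its guide sly-miR6024 had 12663, 14578 and 13489.6 against 13544, 20327 and 21321 (log2FC 0.41, adjusted p = 0.19). The passenger sly-miR5300-p3 had 563, 799 and 734 and 152, 183 and 193 (log2FC -1.98, SE 0.22, adjusted p = 4.2e-05), and its guide had 18618, 16957 and 21628 and 9902, 16707 and 11986 (log2FC -0.59, adjusted p = 0.17). For both duplexes the passenger separated the groups more widely than the guide did. The passenger sly-miR6022-p5 was at 41.6% of its control mean (log2FC -1.22, SE 0.32, adjusted p = 0.025), a call that was lost without control replicate 1, control replicate 2, combination replicate 2 or combination replicate 3. Passengers of miR6025, miR6026 and miR6027 were not called, with log2FC of 0.45 for sly-miR6025-p3_stu, 0.34 for sly-miR6026-5p_stu and 0.34 for sly-miR6027-5p.

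**Figure D2:**
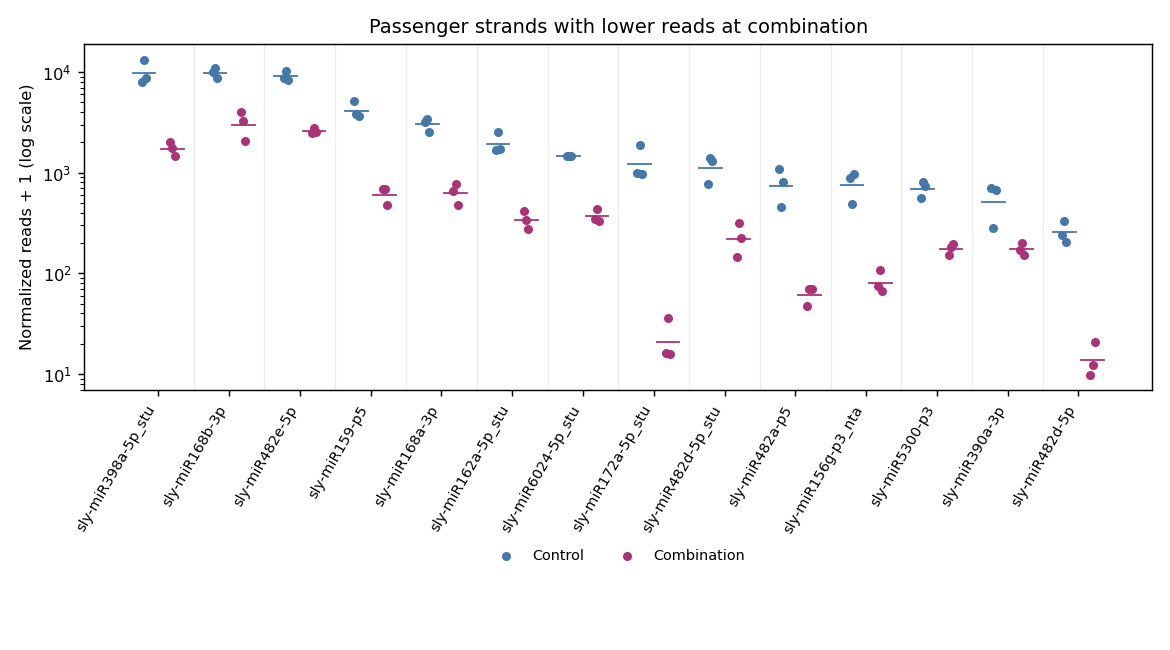
Normalized reads + 1 (log scale) of 14 passenger strands called lower, with 1 point per library (3 control, 3 combination) and a bar at the mean of the log values. For each of them all combination points lie below all control points, and the combination mean ranges from 1.70% of control in sly-miR172a-5p_stu to 31.5% in sly-miR168b-3p.

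The miRNAs that act on copper proteins had 3 lower sequences of 18 tested and none higher (median -0.74), and these 16.7% are near the 12.6% called over all sequences. These are miR397, miR398 and miR408, whose targets include laccases, Cu/Zn superoxide dismutase and plantacyanin, and which are known to accumulate when copper is scarce. The 3 were 2 of 11 guides and 1 of 7 passengers.

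The longer forms of the miR408 guide fell, and the 21-nt form with the same seed did not pass the test. The differences between these forms were not tested. The 21-nt sly-miR408b-3p_stu had 69588, 97354 and 52399 at control and 69426, 31335 and 24585 at combination, where replicate 1 lay within the control range (log2FC -0.91, adjusted p = 0.26). The 22-nt sly-miR408-3p_ath (chromosome 1, 90917910 to 90918015) had 10321, 17440.0 and 10786 and 6777, 4171 and 2886 (log2FC -1.52, SE 0.39, adjusted p = 0.021). The 24-nt sly-miR408-3p_mtr had 1493, 2543 and 2115 and 447, 417 and 241 (log2FC -2.49, SE 0.37, adjusted p = 0.00058). Only the latter 2 had groups that did not overlap. The call of the 22-nt form was lost without control replicate 2, combination replicate 2 or combination replicate 3.

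In miR398 the passenger fell and the guide of the same precursor varied widely. The passenger sly-miR398a-5p_stu (chromosome 11, 50593777 to 50593867) had 8027, 13254 and 8699.5 at control and 1999.6, 1760.1 and 1453 at combination, which is 17.4% of control. The guide sly-miR398a-3p_stu had 64790.2, 195890.0 and 199300.0 and 203117, 132881 and 115206, with control replicate 1 below all others (log2FC 0.10, SE 0.42, adjusted p = 0.97). The name sly-miR398b-3p_stu, a miRNA that was also measured by qRT-PCR, covers 2 sequences. The more abundant had 12372, 8462 and 8919 at control and 7830.2, 5883 and 5189 at combination (log2FC -0.66, adjusted p = 0.059). The other had 1262, 11982 and 4031 and 4081, 93.6 and 80.0, so combination replicate 1 stood with the controls (log2FC -3.64, adjusted p = 0.075). Neither passed the test, while by qRT-PCR the study reported this miRNA as significantly lower after each stress. Both strands of miR397 were abundant, with sly-miR397 at 17360.3, 27608 and 18754 against 37337, 18335 and 21871 (log2FC 0.25, adjusted p = 0.69) and sly-miR397-p3 at log2FC 0.40.

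The families that set developmental phase and organ shape had lower passengers at about the share of all passengers. Of 83 tested sequences 16 fell and none rose (19.3% called, median -0.23). Of 35 passengers 15 fell (42.9%, against 39.7% of all passengers, with a median of -1.28), and of 48 guides 1 did (median 0.02). These families are miR156, miR159, miR164, miR166, miR169, miR171, miR172, miR319 and miR396, and nearly all of them cut transcripts of transcription factors.

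The largest fall among the 53 with reads in both groups was that of the miR172 passenger sly-miR172a-5p_stu (chromosome 6, 46670344 to 46670449). It had 984, 1905 and 968 normalized reads at control and 15.2, 35.4 and 14.8 at combination, which is 1.70% of control (log2FC -5.86, SE 0.88, adjusted p = 0.00058). Guides of miR172, which act on AP2-type factors, were not called (8 tested, median -0.27). Passengers sly-miR172b-p5 and sly-miR172b-5p_ath from other precursors were at 22.1% and 27.2% of control. All 3 were called in every fit that left out a library.

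Both passengers of miR159 fell, while its guide had higher means at combination without a call. The passenger sly-miR159-p5 (chromosome 3, 69217275 to 69217452) had 5144, 3803 and 3638 at control and 689, 682 and 472 at combination (log2FC -2.77, SE 0.20, adjusted p = 3.3e-06). The guide sly-miR159, which acts on GAMYB factors, had 94426, 98419 and 79275 and 133963, 98124 and 109453 (log2FC 0.32, adjusted p = 0.34). The second passenger, sly-miR159a-5p_gma, was at 13.2% of its control mean (log2FC -2.90, SE 0.37, adjusted p = 0.00018).

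In miR156, which acts on SPL factors, 4 of 7 passengers fell and no guide was called. The passenger sly-miR156g-p3_nta had 876, 491 and 979 and 73.4, 106 and 65.2 (log2FC -3.22, SE 0.32, adjusted p = 2e-05). It has the same seed as sly-miR157d-3p_aly, which is 1 base shorter, comes from another chromosome and was at 35.7% of control (log2FC -1.45, SE 0.22, adjusted p = 0.00067). Falls were also called in sly-miR156c-3p_ath at 35.5% and sly-miR156d-3p at 57.6% of control. The call of sly-miR156c-3p_ath was lost without control replicate 2, control replicate 3 or combination replicate 3, and that of sly-miR156d-3p in 5 of the 6 such fits, with control replicate 2 the exception. The guide sly-miR156a had 21339, 25428 and 19708 and 42308, 25724 and 27806 (log2FC 0.50, adjusted p = 0.18). The most abundant passenger, sly-miR156i-p3_nta, has the seed of sly-miR156g-p3_nta too and had 14396, 10549 and 10126 and 14173, 9589 and 9532 (log2FC -0.08, with a sign that turns when libraries are scaled to equal totals).

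In miR169, which acts on NF-YA subunits, falls were called in a guide as well as in passengers. All 8 tested sequences had log2FC below 0, and 1 of 4 guides and 3 of 4 passengers were called. The 24-nt guide sly-miR169a-5p_ath (chromosome 1, 46680722 to 46680874) had 20.4, 33.3 and 40.9 at control and 0, 7.28 and 0 at combination (log2FC -3.95, SE 0.94, adjusted p = 0.014). Its passenger sly-miR169g-p3_mes had 121, 246 and 285 and 6.32, 32.9 and 46.1 (log2FC -3.18, SE 0.75, adjusted p = 0.014). These strands have the same precursor and both were lower in every combination library. The passenger sly-miR169a-3p_stu had 79.6, 16.4 and 22.6 at control and was listed at 0 in all combination libraries. It passed the filter only through control and drought libraries. The passenger sly-miR169e-3p had 683, 235 and 482 and 91.1, 184 and 165 (log2FC -1.60, SE 0.38, adjusted p = 0.014). Most of these calls turned on single libraries. That of sly-miR169a-5p_ath was lost without control replicate 3 or combination replicate 3, that of sly-miR169g-p3_mes without control replicate 3, that of sly-miR169a-3p_stu without control replicate 1 and that of sly-miR169e-3p without control replicate 1 or 3. The most abundant guide, sly-miR169c, was not called at 91.5, 80.2 and 79.2 against 50.6, 48.7 and 55.6 (log2FC -0.68, adjusted p = 0.11), although its groups were apart.

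In miR164, miR166 and miR396 a single passenger each was called. The passenger sly-miR164a-3p had 164, 156 and 195 and 35.4, 48.1 and 37.4 (log2FC -2.07, SE 0.31, adjusted p = 0.00062), and the guide sly-miR164a-5p, which acts on NAC factors, had 2554, 2050.4 and 2807 and 1236, 1749.6 and 1785 (log2FC -0.64, adjusted p = 0.068). The passenger sly-miR166b-p5 had 3519, 3835 and 3381 and 1697, 2105 and 1070.1 (log2FC -1.19, SE 0.29, adjusted p = 0.015), a call that was lost without combination replicate 3. The passenger sly-miR396a-3p, of the family that acts on growth-regulating factors, was at 55.2% of control (log2FC -0.86, SE 0.19, adjusted p = 0.0095). No sequence of miR171 (13 tested) or miR319 (5 tested) passed. The guide sly-miR171d, which acts on GRAS factors, had 68.1, 92.1 and 134 at control and 149, 208 and 187 at combination, without overlap and without a call (log2FC 0.92, adjusted p = 0.076).

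The auxin list had 3 lower passengers of 9 (33.3%, against 39.7% of all passengers, with a median of -0.84) and no called guide of 12 (median 0.26). It holds miR160, miR167, miR393 and miR390. The guide of miR390 is loaded into AGO7 and starts the making of trans-acting small RNAs from TAS3, which act on auxin response factors. Its passenger sly-miR390a-3p (chromosome 10, 59448031 to 59448193) had 711, 279.8 and 669 at control and 170.1, 199 and 153 at combination (log2FC -1.56, SE 0.31, adjusted p = 0.0062). The passenger sly-miR390b-3p (chromosome 9, 8388439 to 8388547) had 100.5, 31.9 and 155 and 25.9, 20.9 and 11.3 (log2FC -2.06, SE 0.53, adjusted p = 0.022). All combination libraries lay below all control libraries, but control replicate 2 was low for both, and the call of sly-miR390b-3p was lost without control replicate 1, control replicate 3 or combination replicate 3. The guides were not called, with sly-miR390a-5p at 3289, 2942 and 4144 against 4940.2, 3949 and 3710.1 (log2FC 0.28) and sly-miR390b-5p at 1096, 617 and 1771 against 1796, 1503 and 1949.8 (log2FC 0.71). The miR167 passenger sly-miR167c-3p_stu had 37.8, 17.3 and 39.2 at control and 0, 3.16 and 0 at combination (log2FC -4.25, SE 0.90, adjusted p = 0.0081). It passed the filter only through control and drought libraries, in which it was high. The other 2 lower passengers of this list are those of miR390, whose reads may be shared. The guide sly-miR167h_mdm, measured by qRT-PCR in the study, had 25.4, 34.6 and 55.7 and 27.2, 80.3 and 62.2 with overlap (log2FC 0.48, adjusted p = 0.63). By qRT-PCR the study reported it as significantly higher than control after heat and after combined stress.

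Nutrient and other conserved families gave no call. None of 8 sequences of phosphate and sulfate supply passed (miR395, miR399, miR827), and none of 22 of the other conserved families. For sly-miR395a, whose family acts on ATP sulfurylase, the values were 23.9, 9.57 and 7.83 and 13.3, 44.6 and 49.5 (log2FC 1.28, SE 0.64, adjusted p = 0.26). The passenger sly-miR394-3p came closest, at 224, 129 and 126 against 83.5, 72.8 and 46.1 (log2FC -1.22, adjusted p = 0.051). Families known only from Solanum and its relatives had 1 higher and 2 lower sequences of 47 (6.38%, median 0.03). The higher one, sly-miR9470-3p (chromosome 8, 393519 to 394005), had 1237, 1750.1 and 861 and 2302, 2663 and 2178 (log2FC 0.95, SE 0.25, adjusted p = 0.022). Its partner sly-miR9470-p5 had 397, 958 and 445 and 1184, 1135 and 891 (log2FC 0.94, SE 0.29, adjusted p = 0.051), just short of the threshold. The lower ones were sly-miR9474-p3 at 46.0% and sly-miR9479-3p at 43.7% of control. Each of these 3 calls was lost in 4 or 5 of the 6 fits that left out a library, all of them without control replicate 1 and without control replicate 3.

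Candidate miRNAs were 11 of the 14 sequences that rose, and 6 of these 11 passed the filter only through heat and combination libraries. Of 181 tested, 11 rose and 1 fell (6.63% called, against 12.6% over all, median 0.17, or 0.11 without the 10 that were listed at 0 throughout a group). Of the 430 listed, 249 did not pass the filter. The 11 were 5 of 55 tested with 21 nt (9.09%), 5 of 21 with 22 nt (23.8%) and 1 of 98 with 24 nt (1.02%). Over all candidates tested 6.08% rose, and over all sequences 3.34% did.

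Both strands of a pair of candidate hairpins rose. For PC-132 (chromosome 6, 23724811 to 23725064) the 3p strand had 40.3, 46.0 and 24.8 at control and 86.0, 102 and 88.2 at combination (log2FC 1.33, SE 0.32, adjusted p = 0.014). The 5p strand had 38.3, 52.0 and 66.1 and 86.0, 241 and 190.4 (log2FC 1.62, SE 0.41, adjusted p = 0.021). The means were 2.49-fold and 3.31-fold those of control. For PC-115 (chromosome 3, 68032899 to 68033075) the 3p strand had 0, 0 and 6.09 and 12.6, 47.5 and 36.5, and the 5p strand was listed at 0 in all control libraries and had 15.2, 38.0 and 35.6 at combination. Both PC-115 strands passed the filter only through heat and combination libraries, in which they were high. Calls of PC-132-3p and PC-132-5p were lost without combination replicate 2 or 3 and without control replicate 3 for the first and control replicate 1 for the second. Those of PC-115 were lost without either of the same combination libraries and without control replicate 1, with control replicate 2 also needed for the 3p strand and control replicate 3 for the 5p strand.

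Of the other candidates that rose 1 strand each was called, with combination means from 10.3 (PC-42-3p) to 174 (PC-140-3p) normalized reads. PC-140-3p had 77.1, 103 and 59.6 at control and 144, 194 and 183 at combination (log2FC 1.14, SE 0.29, adjusted p = 0.02). PC-20-5p had 19.4, 31.0 and 17.8 and 53.1, 70.2 and 75.6 (log2FC 1.53, SE 0.37, adjusted p = 0.016), and PC-351-3p had 43.8, 43.8 and 39.2 and 77.2, 70.2 and 95.6 (log2FC 0.91, SE 0.27, adjusted p = 0.043). For these 3 the groups did not overlap, yet the first 2 calls were lost without control replicate 1, control replicate 3, combination replicate 2 or combination replicate 3, and the last without any 1 library. PC-42-3p, PC-50-3p, PC-85-3p and PC-186-5p were listed at 0 in every control library, so no fold is given. They passed the filter only through heat and combination libraries, in which they were high. In the combination libraries PC-85-3p had 30.4, 10.8 and 34.8 normalized reads, and its partner PC-85-5p was not called at 0, 0 and 0 against 12.6, 4.43 and 9.56. PC-186-5p had 16.4, 22.8 and 113, of which replicate 3 was far above the others. PC-42-3p had 9.49, 6.64 and 14.8 and PC-50-3p had 25.3, 9.49 and 18.3. Without combination replicate 3 PC-42-3p, PC-50-3p and PC-186-5p were not called, nor were PC-50-3p and PC-186-5p without control replicate 1 or 3. PC-50-3p was also not called without each of the other 3 libraries. The single candidate that fell, the 24-nt PC-181-3p, had 8.95, 33.7 and 51.8 and 0, 6.64 and 0 (log2FC -3.74, SE 0.83, adjusted p = 0.01), a call lost without control replicate 3. PC-56-5p, measured by qRT-PCR in the study, had 4099, 2885 and 4132 and 2444, 3239 and 2816 with overlap (log2FC -0.38, adjusted p = 0.26). By qRT-PCR the study reported it as significantly lower after each stress.

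Guides of a family share targets, so the reads of all listed guides were also summed in each of 37 families. Of these 3 (8.11%) were called. The miR169 total was 301, 148 and 184 at control and 75.9, 77.8 and 68.4 at combination (log2FC -1.44, SE 0.36, adjusted p = 0.017). The miR168 total was 9306, 6625 and 6757 and 4521, 3549.9 and 4239 (log2FC -0.87, SE 0.18, adjusted p = 0.011). Both were lower in every combination library. The miR403 total is its single guide described above and rose (log2FC 0.86, SE 0.19, adjusted p = 0.011). None of the 3 was called without control replicate 1, and 5 families were called without combination replicate 1. The miR408 total had 84254, 118351 and 66585 and 78056, 36831 and 28429.9, with overlap (log2FC -1.01, SE 0.42, adjusted p = 0.16). The miR482 total, the largest of all, had 282456, 220916 and 267878 and 186096, 275252 and 192772 (log2FC -0.25, SE 0.22, adjusted p = 0.51). The miR156 total was higher by mean, at 23512, 28474 and 21978 and 46389.8, 27943 and 30824, and did not pass (log2FC 0.48, SE 0.21, adjusted p = 0.16).

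**Figure D3:**
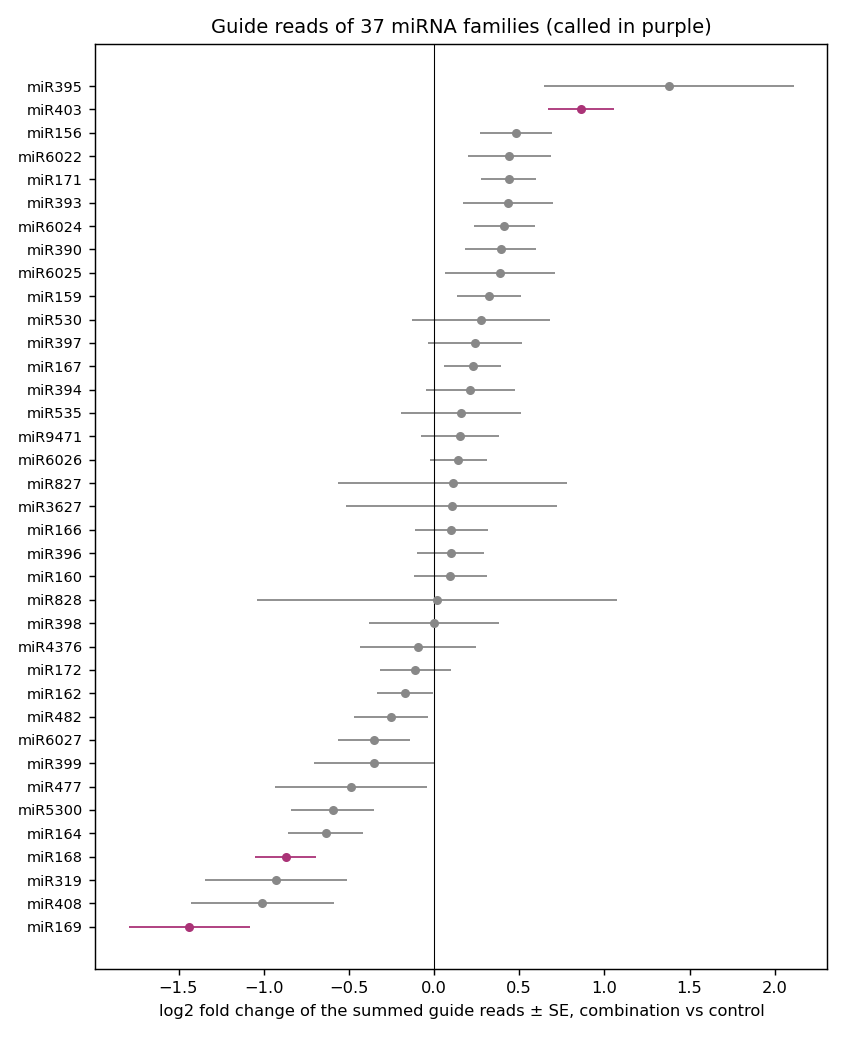
Points give the log2 fold change of the summed guide reads of each of 37 families at combination vs control and lines give its SE (12 libraries in the fit), ordered by the change, with called families in purple. Only miR169 (-1.44), miR168 (-0.87) and miR403 (0.86) are called.

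In many duplexes the balance between the strands moved away from the passenger. In 59 duplexes with both strands tested, from 33 families, the log2 ratio of passenger to guide was lower at combination in 27 (45.8%) and higher in 1 (1.69%). The median change was -0.89 over duplexes, with 46 below 0. By library, the median log2 ratio was -2.99 ± 0.0207 at control and -4.10 ± 0.156 at combination (SD, n = 3), with no overlap and the smallest p that 3 against 3 libraries allow (exact permutation test, two-sided, p = 0.1). Of the 27, 18 had a guide with log2FC above 0, 25 had a guide that was not called and 21 had a passenger that was called. In 19 of the 27 the ratio was called in every fit that left out a library. In some of the 27 the listed guide was the rarer strand, so the ratio does not describe the main guide of the family. For example, sly-miR162a-5p_stu held 97.7% of its duplex with sly-miR162a-p3_stu at control and 86.1% at combination. In the same order sly-miR157d-3p_aly held 94.5% and 76.6%, and sly-miR172b-5p_ath 58.7% and 34.2%.

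The share of a duplex that the passenger held shows the size of these changes. In miR482d it was 5.05% of the summed means at control and 0.331% at combination (log2 change of the ratio -3.94, SE 0.36, adjusted p = 1.6e-05). In miR159 it was 4.42% and 0.537% (log2 change of the ratio -3.09, SE 0.25, adjusted p = 1e-05). In miR390b it was 7.62% and 1.09% (log2 change of the ratio -2.77, SE 0.45, adjusted p = 0.00052). In these 3 the guide was not called. For miR398a the share went from 6.12% to 1.14%, for miR6024 from 9.70% to 1.99% and for miR6022 from 36.3% to 14.7%. The opposite change was called in miR6027 alone, where the passenger sly-miR6027-5p went from 25.3% to 35.6% of its duplex (log2 change of the ratio 0.69, SE 0.22, adjusted p = 0.025), and it was kept in 2 of the 6 fits that left out a library. In the miR408b duplex the ratio was not called (log2 change of the ratio 0.10, SE 0.21, adjusted p = 0.71), and in the duplex of sly-miR169a-5p_ath and sly-miR169g-p3_mes it was not called either (log2 change of the ratio 0.77, SE 0.74, adjusted p = 0.46).

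**Figure D4:**
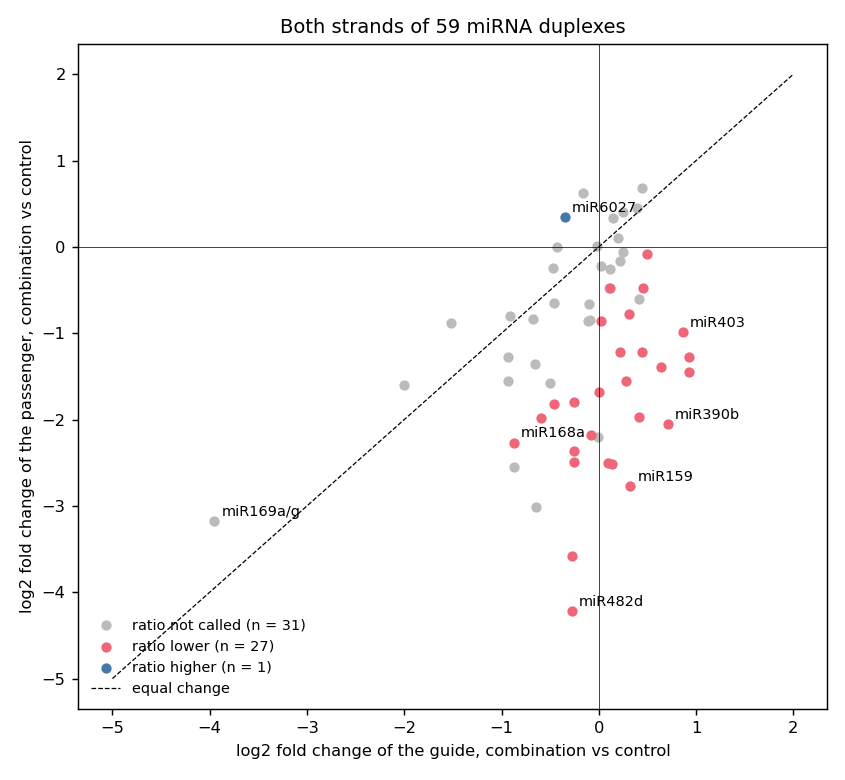
Each point is 1 of 59 duplexes, with the log2 fold change of the guide on the x axis and of the passenger on the y axis (combination vs control), the dashed line marks equal change and red points are the 27 with a lower ratio. Of the 59 points 46 lie below the line, with miR482d lowest, and miR6027 is the single duplex with a higher ratio.

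Heat and combination share their temperature, so the combination was also set against heat in the same fit. Drought and heat were each compared with the same control libraries, so their values stand here side by side with those of combination. The 31 lower passengers had a median log2FC of -2.07 at combination, -3.10 at heat and -0.38 at drought. In the direct test of combination vs heat, which called 27 of 419 sequences (6.44%), 13 of the 31 were higher at combination and 1 was lower. Over all sequences 6.21% were higher and 0.239% lower. Against drought, where 50 were called (11.9%, of which 4.53% higher and 7.40% lower), 22 of the 31 were lower at combination and none was higher. The 31 were chosen for low values at combination, so any deficit against drought or heat is a description. The number called against heat was 5 when only the libraries of these 2 groups were fitted.

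Among the passengers that were higher than at heat were sly-miR398a-5p_stu, sly-miR166b-p5 and most passengers of miR482. The exception in miR482 was sly-miR482d-5p_stu, just short of the threshold (log2FC 1.35, adjusted p = 0.051 for combination vs heat). The miR482 passenger sly-miR482d-5p was listed at 0 in all heat libraries, and sly-miR482a-p5 had 0, 11.8 and 9.92 there (log2FC 3.57, adjusted p = 0.011 for combination vs heat). In the heat libraries sly-miR398a-5p_stu had 127, 231 and 126 normalized reads, below each of its combination values (log2FC 3.47, adjusted p = 4.8e-06). The passenger sly-miR166b-p5 had 256, 412 and 203 at heat (log2FC 2.49, adjusted p = 0.00014), and sly-miR482e-5p had 660.3, 871 and 707 (log2FC 1.81, adjusted p = 3.1e-05). The miR172 passenger sly-miR172a-5p_stu had 0, 16.5 and 0 at heat and did not pass (log2FC 3.02, adjusted p = 0.063). For sly-miR398a-5p_stu, sly-miR166b-p5 and sly-miR482e-5p the combination libraries lay between the control and the heat libraries. A pair of passengers that was low at heat was not called at combination vs control. The passenger sly-miR160a-3p_stu had 308, 461 and 352 at control, 320.0, 295 and 311 at combination and 21.5, 51.8 and 7.44 at heat (log2FC 3.84, adjusted p = 0.0003). The passenger sly-miR166c-5p had 641, 531 and 781, 330.1, 836 and 688 and 31.0, 161 and 16.1 in the same order (log2FC 3.69, adjusted p = 0.0037).

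The 2 called miR390 passengers, whose reads may be shared, went the other way. Of 3 tested passengers of this family the remaining one was not called at combination vs control (log2FC -0.99). At heat sly-miR390b-3p had 71.8, 71.8 and 139 normalized reads, within the range of control, and it was lower at combination than at heat (log2FC -2.23, adjusted p = 0.027). It was the only called passenger that was lower than at heat. For sly-miR390a-3p the heat libraries had 346, 394 and 292, all above its combination values, and the difference did not pass (log2FC -0.98, adjusted p = 0.09). As ratios to their guides both were lower at combination than at heat, for miR390a (log2 change -1.71, adjusted p = 0.0012) and for miR390b (log2 change -2.45, adjusted p = 0.0017). Of the 27 ratios that fell, these 2 were lower than at heat and 13 were higher than at heat, while 47.5% of all 59 differed from heat. From drought 23 of the 27 differed, and 49.2% of all. The 27 were chosen for low ratios at combination, so their deficits against drought or heat are a description too. At drought sly-miR390a-3p had 538, 632 and 589 and sly-miR390b-3p had 118, 99.7 and 76.3, so their drought libraries were above all their combination libraries.

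The 14 sequences that rose were chosen for high values at combination, so their excess over the other treatments is a description. Their median log2FC was 2.41 at combination, 1.04 at heat and 0 at drought. At the threshold of the direct tests 12 were higher than at drought (4.53% over all) and 1, PC-132-3p, was higher than at heat (6.21% over all). The difference of this strand from heat was just past the threshold (log2FC 1.15, adjusted p = 0.049). That strand had 43.4, 36.5 and 42.8 normalized reads at heat and 20.9, 20.7 and 22.7 at drought, so its combination libraries were above the other 9. The guide sly-miR403-3p had 4342, 4738 and 5137 at heat, above every control library and below every combination library (log2FC 0.32, adjusted p = 0.37).

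**Figure D5:**
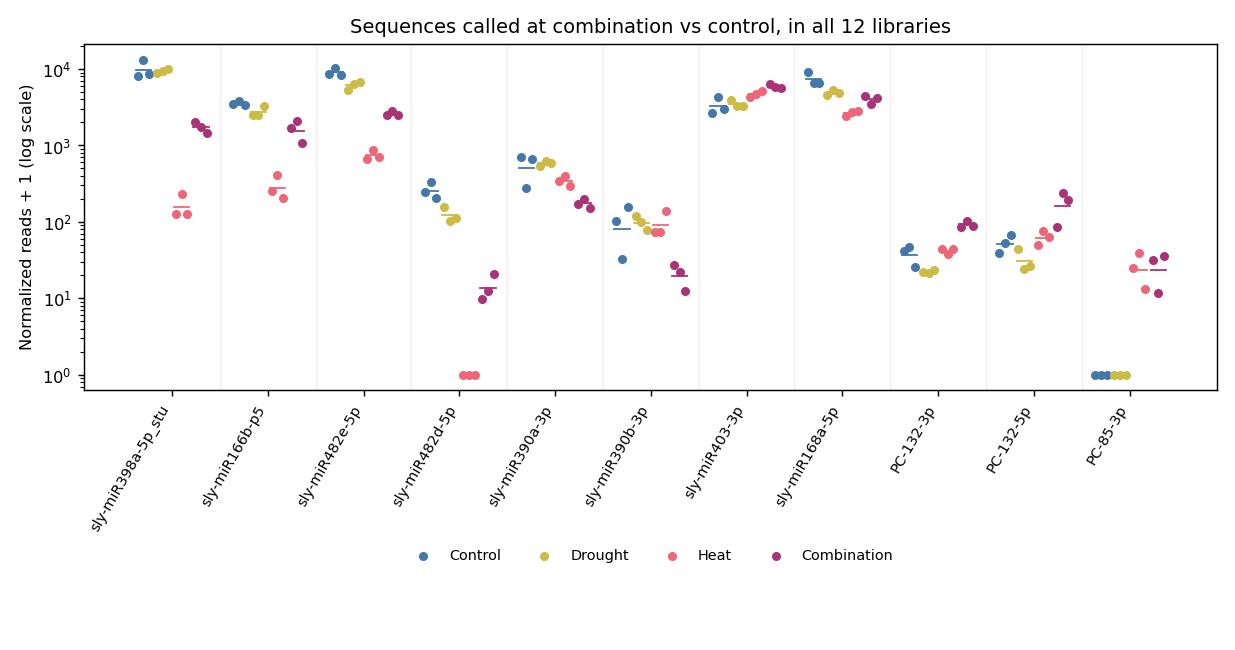
Normalized reads + 1 (log scale) of 11 called sequences in all 12 libraries, with 1 point per library, 3 per treatment, and a bar at the mean of the log values. In the 4 passengers at the left the heat points lie lowest and the combination points next, while in sly-miR390a-3p and sly-miR390b-3p the combination points lie lowest.

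Passengers were also sorted by their first base. The base at the 5′ end is known to steer strands to AGO proteins, with AGO1 taking mostly uridine. Of 29 tested passengers that start with guanine 17 fell (58.6%), and of 15 with cytosine 8 did (53.3%). Of 22 with adenine 3 fell (13.6%), and of 12 with uridine 3 did (25.0%). Over all passengers tested 39.7% fell. Among guides 76 of 109 start with uridine and 6 with guanine. Reads from sequences that start with guanine made up 3.65% ± 0.159 at control and 2.00% ± 0.0238 at combination (SD, n = 3), and those with cytosine 2.02% ± 0.160 and 1.23% ± 0.0273. Uridine held 89.3% ± 0.540 and 92.1% ± 0.0943. All combination libraries lay on 1 side of all control libraries in each of these, and each had the smallest p possible (exact permutation test, two-sided, p = 0.1, adjusted over 9 shares p = 0.18). Shares of reads weigh abundant strands most. From control to combination the mean of sly-miR398a-5p_stu, which starts with guanine, went from 9993 to 1737 normalized reads. That of sly-miR168b-3p, which starts with cytosine, went from 9908 to 3121. The part of single strands in these shares was not tested. The shares of 21-nt reads (69.3% ± 4.02 and 72.4% ± 5.54) and 22-nt reads (28.4% ± 3.78 and 25.2% ± 5.41) overlapped between groups (exact permutation test, p = 0.6 for each). Passenger reads held 11.5% ± 1.40 at control and 8.64% ± 1.15 at combination (exact p = 0.1).

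The degradome libraries of the same treatments list reads at sites where a transcript was cut opposite a miRNA. Of the 53 called sequences 15 had a site in the control or the combination list and 9 had one in both, of which 1 was a passenger. The control and combination lists were normalized by the authors as separate tables, and their sites summed to 210533 to 235245 normalized reads in the control libraries and to 72560 to 82843 at combination, so the values are given without a test. At the AGO1 site (transcript Solyc06g072300.3.1) of sly-miR168a-5p there were 2315, 1992 and 2242 normalized reads at control and 1748, 1296 and 2514 at combination. At the AGO2 site (Solyc02g069260.3.1) of sly-miR403-3p there were 9178, 22771 and 10449.9 and then 7277, 6229.7 and 10221. Each pair of ranges overlapped. At the NFYA8 site (Solyc08g062210.3.1), assigned to several miR169 guides but not to sly-miR169a-5p_ath, there were 2729, 6119.8 and 3924 at control and 1219.6, 1260.3 and 1421 at combination, so the ranges were apart. None of the guides assigned to this site was called. At the DCL1 site (Solyc10g005130.3.1), assigned alike to the 21-, 22- and 23-nt guides of miR162, there were 2439, 569 and 841 and then 447, 972 and 219. At the PAA2 site (Solyc08g061610.3.1), named for a copper-transporting ATPase and assigned to sly-miR408-3p_ath, there were 124, 213 and 320.3 and then 203, 180.1 and 164, which overlapped. The same guide has a site in SAC3A (Solyc05g054910.3.1), with 785, 1672 and 280.3 at control and 122, 0 and 164 at combination, where the ranges were apart, and one in PCMP-H28 (Solyc07g005740.1.1), with 82.7, 35.6 and 360.3 and 163, 36.0 and 0, where they overlapped. At the GGAT2 site (Solyc05g013380.3.1) of PC-351-3p there were 207, 427 and 561 and then 122, 36.0 and 0, so the ranges were apart. At the NIFS1 site (Solyc02g091900.3.1) of sly-miR9470-3p there were 207, 0 and 400 and then 40.7, 108 and 0, which overlapped. The passenger sly-miR6022-p5 had a site (Solyc04g005860.3.1) with 0, 35.6 and 0 and then 81.3, 36.0 and 0, which overlapped too. Gene symbols are those of the lists, whose annotation column does not always match them and calls the transcript of the AGO1 site a beta-glucosidase. The part of the lower total of the combination list in these values was not tested.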

How the data were processed

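Small RNA was sequenced from leaves in 12 libraries, 3 for each of control, drought, heat and combination, and degradome libraries of the same treatments list cleavage sites. The deposited values are a normalized signal. In the miRNA table the authors mapped reads to miRBase entries and to precursors on SL3.0, and multiplied the reads of a sequence by 1 factor per library, the formula of which is not given in the sources used here. In the degradome lists the deposited signal is reads per site scaled in the same way, with each treatment as its own table. Circular RNA values and the degradome lists of the single stresses were not used here. Sequences are those of the deposited table, precursor positions on SL3.0 come from the study's list of miRNAs, and the gene symbols at cleavage sites are those of the deposited lists, which do not always match the annotation given beside them.

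The table has 869 lines with 765 different sequences, each of which was counted once. The factor of a library was taken as the largest step of which most values are whole multiples, and 85 to 86% of the values in the control and combination libraries then came out as whole reads, within 0.001 reads. Counts are not the deposited unit, so the test was limma on log2(normalized reads + 1) with a mean-variance trend, 1 mean per treatment over all 12 libraries and Benjamini-Hochberg adjustment over the 419 sequences. A call is an adjusted p under 0.05. The log2 ratio of passenger to guide from 1 precursor (59 duplexes) and guide totals per family (37) were fitted alike, the ratios without a trend, and shares of reads were compared by exact permutation tests over libraries. R 4.3.3, limma 3.58.1, Python 3.11.15, pandas 2.3.3, numpy 2.4.6 and matplotlib 3.10.9 were used, and the fit was tested on simulated data.

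The members, arms and lists were chosen with earlier results of these data known. Sequences were named when they were among the 12 highest or 15 lowest called ones with a mean of at least 20 normalized reads in the higher group, were partners of these, were the most abundant guide of a family, were measured by qRT-PCR in the study, or were called and in a list. The uncalled sly-miR390b-5p, sly-miR397-p3, sly-miR156i-p3_nta, sly-miR160a-3p_stu, sly-miR166c-5p, sly-miR168a-5p_ath, sly-miR394-3p, sly-miR6025-p3_stu, sly-miR6026-5p_stu and sly-miR6027-5p were chosen after their values were seen. Replicate numbers are shared by the groups in the labels, with no sign of a shared plant or day, so no block was used. The alternatives were other pseudocounts (0.5 and 10), filters, scalings and sets of libraries, a replicate block, no trend, voom on recovered reads, an unadjusted two-sample test and leaving out each library.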

Additional observations from a re-analysis of the deposited data

How the results depend on the processing

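With only the 6 libraries of control and combination in the fit, 33 sequences were called, 7 of them higher, and without control replicate 1 or combination replicate 3 there were 35 or 32 (32 to 57 over the 6 fits that left out a library). The number higher was 8 under the filter of 20 normalized reads in 6 libraries, 30 by the unadjusted two-sample test, and 3 to 19 with a library left out. The number lower was 28 to 39. Against heat 5 sequences were called with only 2 groups and 20 to 28 with a library left out, and against drought 35 to 56. Called family totals were 5 with only 2 groups, and from 0 without control replicate 1 to 5 without combination replicate 1. Called ratios were 20 to 28. The difference in the 24-nt share (-0.110 points) was -0.220 to 0.0445, and that of candidates (0.0917 points) was -0.0582 to 0.293. Other shares kept their direction. The cause of these changes was not tested. Of values not called, sly-miR156i-p3_nta (log2FC) turned to 0.021 with equal library totals and 0.018 with voom, and was -0.27 to 0.077 with a library left out. In such fits sly-miR398a-3p_stu was -0.44 to 0.37, sly-miR397 -0.054 to 0.46 and sly-miR166c-5p -0.43 to 0.24, and the log2 ratio of sly-miR408b-5p_stu to sly-miR408b-3p_stu was -0.034 to 0.22. Scaling libraries to equal totals moved every log2FC up by about 0.10, and then 49 sequences were called, 15 higher and 34 lower. Fits without a trend and other scalings do not apply to ratios and were not run for them.

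With the replicate block 52 sequences were called, 13 higher and 39 lower, with 43 against drought, 27 against heat, 26 ratios and 3 family totals. Deviations of same-numbered control and combination libraries correlated at 0.35, -0.09 and 0.18 across sequences. Those of libraries with different numbers correlated at -0.40 to 0.39. Sequences are not independent replicates and each group has 3 libraries, so these values cannot decide whether the numbers pair the libraries.

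The effect of depth on sequences with few reads was not tested.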

Other observations

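Among the 346 sequences that did not pass the filter, 97 conserved and 249 candidates, 6 were listed above 0 in every combination library and at 0 in every control library. These were 5 candidates and sly-miR319d-p3_atr, which had 13.9, 2.53 and 10.9 normalized reads at combination. The candidate PC-89-3p had 7.59, 332 and 6.08, so nearly all of its reads came from combination replicate 2. The others, PC-188-5p, PC-207-5p, PC-249-5p and PC-287-5p, had between 5.06 and 20.2 in each combination library. The reverse held for 2 sequences, both of families in which passengers fell. For sly-miR169d-p3 the control libraries had 31.8, 4.56 and 6.09, and for sly-miR172e-p5_ath they had 6.96, 5.47 and 6.09. These were picked for their pattern after the values were seen, and no test was made.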
